A study of Mus musculus with 12 samples.

Results

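The genes described here are 37 genes of DNA replication and S phase, taken by symbol from the 27503 genes of the deposited table. All 37 passed the filter on low counts, which kept 17590 genes for testing. RNA was sequenced from B16F10, a transplantable mouse melanoma line, in 12 libraries, 3 for each of 4 groups. The groups were wild-type cells without treatment (wild-type control), wild-type cells given interferon alpha (wild-type IFNα), cells with the IRF7-C435A mutant without treatment (mutant control) and the same mutant given interferon alpha (mutant IFNα). IRF7 activates transcription of type I interferon genes, and the C435A change puts alanine in place of a cysteine. The series title names S-nitrosylation of IRF7 and NOS1, a nitric oxide synthase. The labels give neither the dose and time of IFNα nor how the mutant was introduced or whether it is 1 clone. Whether the 3 libraries of a group came from separate cultures is not stated either, so each p-value rests on a spread between samples that may be purely technical.

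A cell copies its genome once per cycle. In G1, the origin recognition complex, Cdc6 and Cdt1 load the ring-shaped MCM helicase onto origins, and at the start of S phase Cdc45 and the GINS complex join it to form the active helicase. DNA polymerases then copy the strands, held to DNA by the PCNA clamp, which the RFC complex loads, while ribonucleotide reductase and thymidylate synthesis supply the nucleotides. The transcription factor E2F, released from the retinoblastoma protein by cyclin-dependent kinases, turns on most of these genes at the G1/S border. Type I interferon is known to slow the cycle of many cell types. In bulk RNA, fewer cells in S phase and less RNA per cell cannot be told apart.

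Promoter sequences in RefSeq for the build GRCm38.p6 were matched by symbol for 31 of the 37 genes; Ccne2, Gins1, Gins2, Mcm4, Pole and Rfc2 had no match. In all, 4 letter strings of the E2F type, TTTCCCGC, TTTCGCGC, TTTGCCGC and TTTGGCGC, were searched on both strands in the 250 bases before the start. At least 1 was found in 8 of the 31 genes (25.8%), namely Cdc6, Mcm5, Mcm6, Mcm7, Orc1, Pola1, Rfc3 and Uhrf1, against 583 of all 27025 genes in the promoter table (2.16%). The other 23 had none, Cdc45 and E2f1 among them. Some genes have more than 1 annotated start, and a gene was counted if any of its starts had a match. Mcm7 and Uhrf1 had a match before 1 start and 0 before another. The share was 16.7% of 48 other replication genes, 31.6% of 19 other G1/S control genes and 5.88% of 34 mitosis genes, and no test was made of these shares. The string CCAAT, searched in the same way, was in 20 of the 31 (64.5%) against 37.5% of all. It was in 47.9%, 52.6% and 76.5% of those 3 other lists, and 0 of the E2F-type matches shared bases with it. A core of the interferon-stimulated response element, searched likewise, was in 0 of the 31, against 3.46% of all. The 160 bases before the start are printed here for 5 genes with matches, of which Mcm6, Cdc6, Orc1 and Rfc3 had some of the smallest p-values between the lines, and for Cdc45, the gene with the smallest. Capitals mark the E2F-type matches, and where matches on opposite strands overlap they form 1 run. A match is a description of the letters, and its absence says only that the strings are not in the window.
Mcm6 (GRCm38.p6, chr1:128359706-128359865, minus strand): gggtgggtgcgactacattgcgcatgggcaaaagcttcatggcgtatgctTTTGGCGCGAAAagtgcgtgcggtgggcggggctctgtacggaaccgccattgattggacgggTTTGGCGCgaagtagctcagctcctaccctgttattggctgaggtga
Mcm5 (GRCm38.p6, chr8:75109349-75109508, plus strand): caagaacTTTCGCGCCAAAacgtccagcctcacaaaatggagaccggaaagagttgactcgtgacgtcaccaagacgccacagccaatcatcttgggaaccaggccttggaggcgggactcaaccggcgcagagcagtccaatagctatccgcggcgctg
Cdc6 (GRCm38.p6, chr11:98907991-98908150, plus strand): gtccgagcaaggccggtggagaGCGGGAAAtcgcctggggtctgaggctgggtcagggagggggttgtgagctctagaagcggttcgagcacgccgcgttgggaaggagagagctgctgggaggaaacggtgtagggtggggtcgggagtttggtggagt
Orc1 (GRCm38.p6, chr4:108579294-108579453, plus strand): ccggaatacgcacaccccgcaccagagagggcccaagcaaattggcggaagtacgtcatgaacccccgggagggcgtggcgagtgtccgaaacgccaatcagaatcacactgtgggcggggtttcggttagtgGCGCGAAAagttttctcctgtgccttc
Rfc3 (GRCm38.p6, chr5:151651209-151651368, minus strand): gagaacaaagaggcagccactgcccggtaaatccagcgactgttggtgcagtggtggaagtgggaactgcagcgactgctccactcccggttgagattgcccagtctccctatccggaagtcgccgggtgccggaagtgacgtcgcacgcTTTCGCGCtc
Cdc45 (GRCm38.p6, chr16:18811973-18812132, minus strand): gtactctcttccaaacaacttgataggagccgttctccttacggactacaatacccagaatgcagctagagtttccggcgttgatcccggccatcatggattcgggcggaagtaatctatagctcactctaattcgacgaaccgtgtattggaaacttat

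Library totals ran from 60511573 to 75927461 counts, and the 3 mutant controls and mutant IFNα 3 were the smallest. All 8 melanocyte markers were detected in every library, with summed levels of 7168 to 9583 CPM (counts scaled to library size after TMM adjustment). Transcripts of 7 lung genes were present at a summed 38.1 to 59.6 CPM in wild-type control 1, all wild-type IFNα libraries, all mutant controls and mutant IFNα 3, with 6 or 7 of the 7 detected. In the other 4 libraries the sum was at most 0.156 CPM, with at most 1 of the 7 detected. Other cell type markers moved with the groups too. The 11 fibroblast and endothelial markers summed to 37.5 to 39.7 CPM in the wild-type controls (6 to 9 detected) and 62.5 to 68.4 CPM in the wild-type IFNα libraries (10 to 11 detected), without overlap. They summed to 40.8 to 73.3 CPM in the mutant controls, to 33.3 and 35.4 CPM in mutant IFNα 1 and 2 and to 82.8 CPM in mutant IFNα 3. The collagen gene Col1a1 had the highest FPKM of the 11 and a transcript of 5930 bases, so it weighs most in these sums. Its means were 3.43 FPKM in the wild-type controls and 6.16 FPKM in the wild-type IFNα libraries. Col1a2 was also higher there (0.671 and 1.06 FPKM), whereas Pdgfrb overlapped (0.924 and 0.975 FPKM). Which cells made the collagen RNA was not tested. The endothelial genes Cdh5 and Tek followed the lung transcripts by library. Both were at 0 FPKM in the 4 libraries with a lung sum of at most 0.156 CPM. In all others they were above 0, at most 0.460 FPKM. Pecam1 was at most 0.0223 FPKM in those 4 and at least 0.156 FPKM in the others. Col1a1, Col1a2 and Pdgfrb overlapped between libraries with and without lung transcripts. The 10 leukocyte markers summed to 64.3 to 101 CPM in the wild-type controls, 63.0 to 98.6 CPM in the wild-type IFNα libraries, 112 to 124 CPM in the mutant controls and 65.6 to 93.1 CPM in the mutant IFNα libraries, so that the mutant controls lay above all others. Lyz2 had the highest mean FPKM of the 10, at 40.1 against 3.03 for Csf1r, the next, so it weighs most in these sums. Its mean was 54.6 FPKM in the mutant controls and 32.3 FPKM in the wild-type controls. Itgam also had its highest mean in the mutant controls (2.00 FPKM), whereas Csf1r was higher in the mutant IFNα libraries (3.48 against 3.13 FPKM). The part of these fibroblast, endothelial and leukocyte markers in the results was not tested. TMM scaling factors were 1.104 in wild-type control 3 and 1.13 in wild-type IFNα 1 and 0.955 to 0.997 in the others.

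Levels differed widely between the genes. Per transcript length, as FPKM averaged over the 12 libraries, the clamp gene Pcna stood highest at 130, followed by the helicase genes Mcm5 at 69.7 and Mcm2 at 43.6. The nucleotide genes Dut, which removes dUTP, and Rrm2, the small subunit of ribonucleotide reductase, followed at 41.9 and 40.5. At the other end were Pola1 at 0.494 FPKM and Pole at 0.912 FPKM, the catalytic subunits of polymerases alpha and epsilon, and Orc1 at 1.70 FPKM. Ranks by FPKM compare genes per length, while the CPM values that follow compare libraries within a gene.

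Between libraries the genes moved little. The median over the 37 genes of the log2 ratio to the wild-type control mean took the values −0.04, −0.04 and 0.02 in the wild-type controls, 0.22, 0.16 and 0.19 in the wild-type IFNα libraries, −0.04, −0.02 and −0.05 in the mutant controls, and 0.10, 0.15 and −0.01 in the mutant IFNα libraries. The wild-type IFNα libraries thus lay above all others, and the mutant IFNα libraries lay above the mutant controls. Mutant IFNα 3, the lowest of its group, was the 1 library of that group with lung transcripts. Among libraries with lung transcripts, the 3 wild-type IFNα values were far above that of wild-type control 1, whereas mutant IFNα 3 was only just above the mutant controls. No mutant control lacked these transcripts, so mutant IFNα 1 and 2 have no control of their own kind. The 37 genes summed to 3163 to 3207 CPM in the wild-type controls, 3615 to 3703 CPM in the wild-type IFNα libraries, 3102 to 3227 CPM in the mutant controls and 3397 to 3520 CPM in the mutant IFNα libraries.

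**Figure D1:**
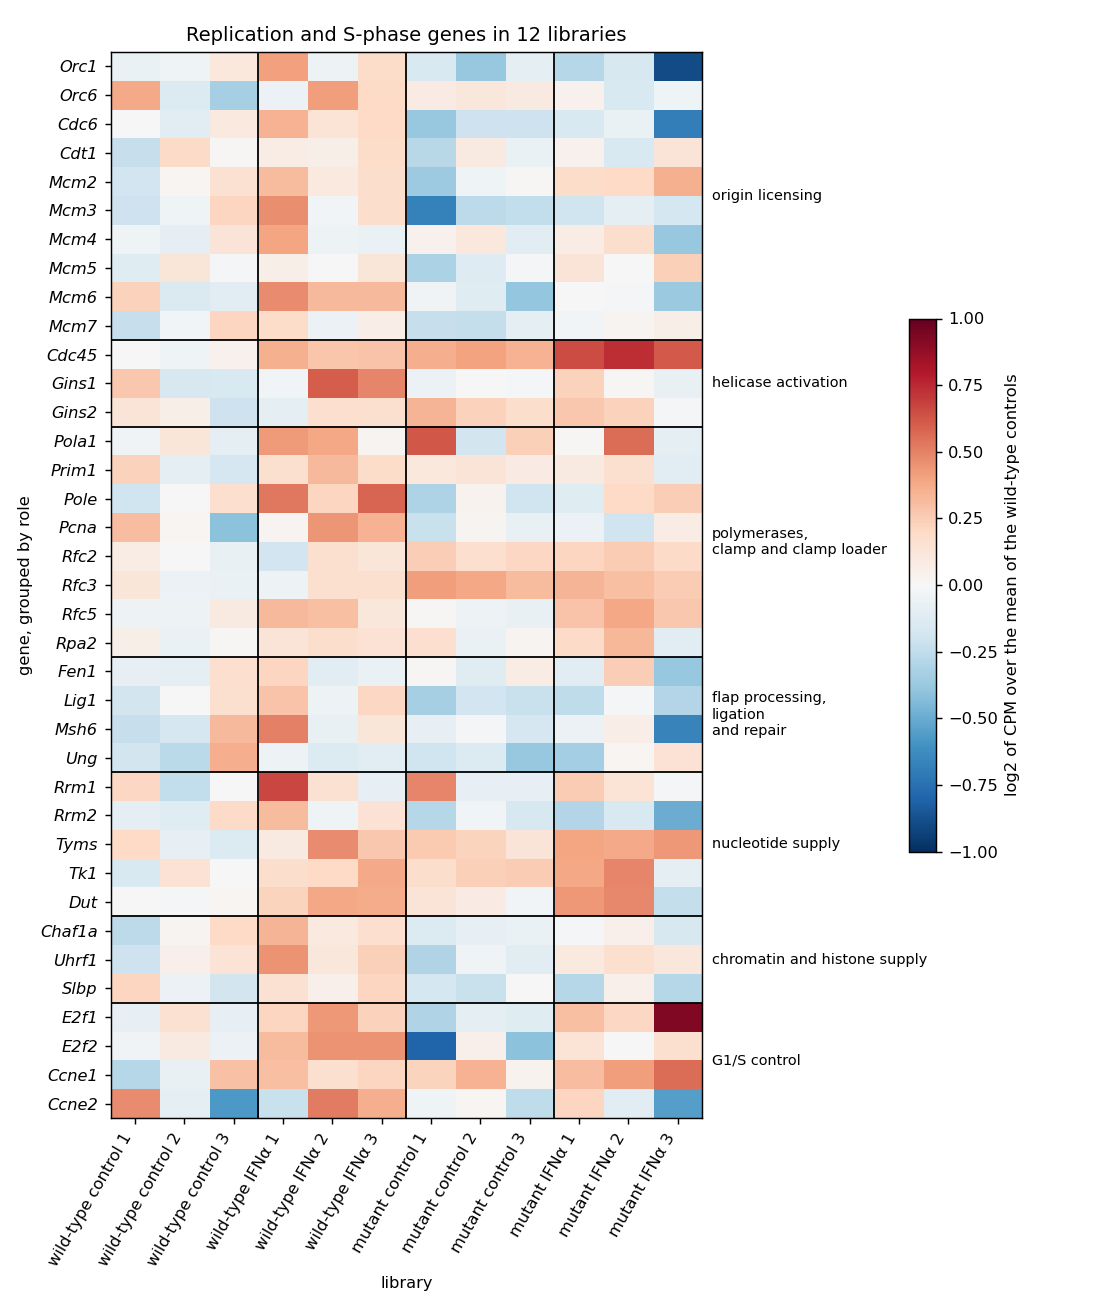
Each cell is the log2 ratio of a gene's CPM in 1 library to the mean of the 3 wild-type controls, for the 37 genes (vertical axis, grouped by role) in 12 libraries (horizontal axis). The wild-type IFNα columns are mostly red, and Cdc45 and Rfc3 are red in all mutant columns.

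Origin licensing was represented by 10 genes. Mcm6, a subunit of the MCM ring (chromosome 1, 128259327 to 128287401, minus strand, as deposited), measured 125, 95.8 and 98.1 CPM in the wild-type controls, 148, 133 and 133 CPM in the wild-type IFNα libraries, 103, 97.9 and 81.3 CPM in the mutant controls and 106, 106 and 82.1 CPM in the mutant IFNα libraries. The deposited positions carry no build name and differ from those of GRCm38.p6, so they are not to be joined. The wild-type IFNα libraries were above all 9 others. The log2 fold change ± SE with IFNα was 0.38 ± 0.140 in wild-type cells and 0.06 ± 0.140 in mutant cells (adjusted p = 0.798 and 0.919, edgeR). With IFNα present, the mutant was lower than the wild type by a log2 fold change of −0.49 ± 0.140, which did not pass (adjusted p = 0.133, edgeR).

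Cdc6, the ATPase that brings MCM to origins (chromosome 11, 98798627 to 98814766, plus strand, as deposited), measured 24.5, 22.8 and 26.2 CPM in the wild-type controls, 31.1, 27.0 and 28.1 CPM in the wild-type IFNα libraries, 18.8, 21.3 and 21.2 CPM in the mutant controls and 22.03, 23.4 and 15.2 CPM in the mutant IFNα libraries. The wild-type groups did not overlap each other, and the mutant was below the wild type at each treatment. The mutant difference was −0.26 ± 0.149 without IFNα and −0.51 ± 0.149 with it (adjusted p = 0.551 and 0.144, edgeR). Mcm3 measured 90.2, 101 and 121 CPM in the wild-type controls, 143, 102 and 118 CPM in the wild-type IFNα libraries, 65.0, 86.8 and 87.9 CPM in the mutant controls and 90.8, 97.4 and 92.1 CPM in the mutant IFNα libraries. Every mutant library was below every wild-type library of the same treatment, at −0.38 ± 0.153 without IFNα and −0.37 ± 0.153 with it (adjusted p = 0.400 and 0.289, edgeR).

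Mcm5, the most abundant licensing gene, measured 266, 314 and 285 CPM in the wild-type controls, 300, 288 and 313 CPM in the wild-type IFNα libraries, 232, 264 and 284 CPM in the mutant controls and 315, 289 and 340 CPM in the mutant IFNα libraries. The groups overlapped in the wild type but not in the mutant, where the IFNα difference was 0.27 ± 0.113 (adjusted p = 0.438, edgeR). Orc1, the largest subunit of the origin recognition complex, had the largest negative difference between the lines with IFNα, at 8.66, 6.31 and 7.41 CPM in the wild type and 5.35, 5.82 and 3.51 CPM in the mutant. These groups did not overlap, and the log2 fold change was −0.61 ± 0.196 (adjusted p = 0.188, edgeR); Orc1 was named after its values were seen. Across all 10 licensing genes, the IFNα difference in the wild type ran from 0.06 to 0.38 with a median of 0.20.

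Helicase activation was represented by Cdc45, Gins1 and Gins2. Cdc45, the subunit that joins the MCM ring to make the active helicase (chromosome 16, 18599197 to 18630722, minus strand, as deposited), measured 47.6, 46.4 and 49.1 CPM in the wild-type controls and 61.0, 57.9 and 58.1 CPM in the wild-type IFNα libraries. It measured 61.4, 62.9 and 60.6 CPM in the mutant controls and 75.1, 79.4 and 73.0 CPM in the mutant IFNα libraries. The control groups lay apart, each IFNα group lay above its own control, and the mutant IFNα libraries were above all 9 others. The wild-type IFNα and mutant control libraries overlapped.

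For Cdc45 the 4 log2 fold changes had similar sizes: 0.31 ± 0.0906 for IFNα in wild-type cells, 0.30 ± 0.0905 for IFNα in mutant cells, 0.37 ± 0.0907 between the untreated lines and 0.36 ± 0.0905 between the treated lines. The adjusted p-values from edgeR were 0.576, 0.336, 0.148 and 0.0894. The 4 comparisons share their groups in pairs and are not independent of each other. The interaction was −0.01 ± 0.128, with a 95% interval of −0.28 to 0.27. Gins1, a subunit of GINS, measured 26.8, 19.87 and 19.998 CPM in the wild-type controls and 21.9, 33.9 and 31.1 CPM in the wild-type IFNα libraries, so that wild-type IFNα 1 lay within the control range.

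Polymerases, clamp and clamp loader numbered 8 genes. Rfc3, a subunit of the clamp loader (chromosome 5, 151566221 to 151574707, minus strand, as deposited), measured 94.6, 83.2 and 83.0 CPM in the wild-type controls, 83.7, 97.2 and 96.9 CPM in the wild-type IFNα libraries, 116, 114 and 108 CPM in the mutant controls and 110, 107 and 103 CPM in the mutant IFNα libraries. All 6 mutant libraries were above all 6 wild-type libraries. The mutant difference was 0.37 ± 0.102 without IFNα and 0.21 ± 0.101 with it (adjusted p = 0.212 and 0.391, edgeR). The IFNα difference of Rfc3 was 0.09 ± 0.101 in wild-type cells and −0.08 ± 0.101 in mutant cells, with overlapping groups in both.

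Rfc5, another subunit of the loader (chromosome 5, 117516168 to 117527112, minus strand, as deposited), measured 49.7, 49.8 and 54.9 CPM in the wild-type controls, 64.3, 63.3 and 55.8 CPM in the wild-type IFNα libraries, 51.8, 49.8 and 48.9 CPM in the mutant controls and 62.6, 67.2 and 62.0 CPM in the mutant IFNα libraries. All 6 IFNα libraries were above all 6 controls, and the lines overlapped at each treatment. The IFNα difference was 0.25 ± 0.0992 in wild-type cells and 0.35 ± 0.0994 in mutant cells (adjusted p = 0.820 and 0.326, edgeR). Rfc5 overlaps Wsb2 in the deposited coordinates, a gene with more counts, and whether strand was used in counting is not given in the sources used here. The same holds for Orc6 with Vps35, Mcm7 with Cops6 and Chaf1a with Ubxn6, and Cdc45 overlaps Ufd1, which has fewer counts, so the values of these genes are uncertain to that extent. Rfc2, the third loader subunit of the set, was higher in the mutant at both treatments without overlap, by 0.21 ± 0.109 and 0.18 ± 0.109 (adjusted p = 0.513 and 0.496, edgeR).

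Pole measured 8.47, 9.78 and 11.0 CPM in the wild-type controls, 14.1, 11.3 and 14.6 CPM in the wild-type IFNα libraries, 7.87, 9.97 and 8.497 CPM in the mutant controls and 8.94, 11.2 and 11.5 CPM in the mutant IFNα libraries. Wild-type controls and wild-type IFNα libraries did not overlap, and the difference of 0.45 ± 0.164 was the largest of the 37 genes in that comparison (adjusted p = 0.785, edgeR). Pcna measured 390, 320 and 237 CPM in the wild-type controls, 322, 429 and 401 CPM in the wild-type IFNα libraries, 271, 321 and 301 CPM in the mutant controls and 304, 275 and 332 CPM in the mutant IFNα libraries. Its wild-type controls spanned nearly the range of all other libraries, and all groups overlapped in each comparison. The table also holds a pseudogene copy, Pcna-ps2, so part of the Pcna counts is uncertain. That copy had at most 359 counts in any library, against a mean of 22865 for Pcna.

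The 4 genes of flap processing, ligation and repair had the smallest median IFNα difference of the 7 roles in each line, 0.09 in wild-type cells and 0.01 in mutant cells. Fen1, the nuclease that trims flaps between Okazaki fragments, measured 69.5, 68.9 and 82.5 CPM in the wild-type controls, 85.3, 68.1 and 70.3 CPM in the wild-type IFNα libraries, 74.3, 67.8 and 77.4 CPM in the mutant controls and 68.2, 87.2 and 56.6 CPM in the mutant IFNα libraries. Its groups overlapped in every comparison, with log2 fold changes between −0.08 and 0.02. Lig1, the ligase that seals these fragments, measured 59.1, 66.8 and 75.003 CPM in the wild-type controls, 81.5, 64.7 and 77.4 CPM in the wild-type IFNα libraries, 53.3, 58.6 and 57.4 CPM in the mutant controls and 56.2, 66.6 and 54.5 CPM in the mutant IFNα libraries. Lig1 was lower in the mutant by −0.25 ± 0.126 without IFNα and by −0.33 ± 0.126 with it (adjusted p = 0.507 and 0.254, edgeR). The mismatch repair gene Msh6 and the uracil glycosylase gene Ung overlapped between groups in all 4 comparisons, and Ung had the 1 negative value of the 37 genes with IFNα in the wild type, −0.10 ± 0.177.

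Nucleotide supply was represented by 5 genes. Dut measured 93.9, 92.7 and 94.9 CPM in the wild-type controls, 109, 123 and 121 CPM in the wild-type IFNα libraries, 102, 99.2 and 92.2 CPM in the mutant controls and 127, 131 and 79.7 CPM in the mutant IFNα libraries. Both lines were higher with IFNα except for mutant IFNα 3, the lowest of all 12 libraries. The IFNα difference was 0.33 ± 0.152 in wild-type cells and 0.20 ± 0.152 in mutant cells (adjusted p = 0.917 and 0.683, edgeR). Rrm2 measured 114, 112 and 139 CPM in the wild-type controls, 152, 118 and 135 CPM in the wild-type IFNα libraries, 100.4, 120 and 109 CPM in the mutant controls and 99.6, 110 and 86.7 CPM in the mutant IFNα libraries. With IFNα the mutant was below the wild type without overlap, at −0.45 ± 0.133 (adjusted p = 0.146, edgeR). Tyms, the thymidylate synthase gene, and Tk1, the thymidine kinase gene, had IFNα differences of 0.28 ± 0.121 and 0.26 ± 0.140 in the wild type and 0.19 ± 0.121 and 0.06 ± 0.140 in the mutant (edgeR, 0 of these 4 past the threshold). A pseudogene copy, Tyms-ps, is listed beside Tyms, with at most 20 counts in any library.

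Chromatin and histone supply was represented by Uhrf1, Chaf1a and Slbp. Uhrf1, which carries DNA methylation across replication, measured 97.8, 117 and 124 CPM in the wild-type controls, 155, 122 and 134 CPM in the wild-type IFNα libraries, 91.7, 110 and 105 CPM in the mutant controls and 121, 126 and 122 CPM in the mutant IFNα libraries. The groups overlapped in the wild type and did not in the mutant, at differences of 0.28 ± 0.123 and 0.27 ± 0.123 (adjusted p = 0.902 and 0.478, edgeR). Chaf1a, the large subunit of the chromatin assembly factor, and Slbp, the histone mRNA binding protein gene, were lower in the mutant with IFNα by −0.24 ± 0.123 and −0.31 ± 0.132 without overlap (adjusted p = 0.411 and 0.324, edgeR).

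The 4 G1/S regulators had the largest median IFNα difference of the 7 roles in the mutant, 0.34. E2f1, the activating E2F (chromosome 2, 154401327 to 154411812, minus strand, as deposited), measured 46.8, 55.1 and 47.0 CPM in the wild-type controls, 57.5, 67.1 and 58.1 CPM in the wild-type IFNα libraries, 40.4, 46.5 and 45.7 CPM in the mutant controls and 61.3, 57.4 and 94.4 CPM in the mutant IFNα libraries. All 6 IFNα libraries were above all 6 controls, and mutant IFNα 3 stood far above the rest. The IFNα difference was 0.29 ± 0.164 in wild-type cells and 0.68 ± 0.165 in mutant cells (adjusted p = 0.974 and 0.271, edgeR). Without mutant IFNα 3 the value in the mutant was 0.43. That library held lung transcripts and mutant IFNα 1 and 2 did not, and with a term for these transcripts the value was 0.85.

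E2f2, another activating E2F, measured 12.7, 13.8 and 12.5 CPM in the wild-type controls, 16.2, 17.8 and 17.7 CPM in the wild-type IFNα libraries, 7.46, 13.5 and 9.79 CPM in the mutant controls and 14.3, 13.1 and 14.5 CPM in the mutant IFNα libraries. Wild-type controls and wild-type IFNα libraries lay apart, whereas mutant control 2 lay within the range of the mutant IFNα libraries. The IFNα differences were 0.41 ± 0.175 and 0.45 ± 0.176 (adjusted p = 0.887 and 0.427, edgeR). Ccne1, the cyclin E1 gene, measured 64.7, 74.9 and 96.6 CPM in the wild-type controls, 97.2, 87.8 and 91.3 CPM in the wild-type IFNα libraries, 91.9, 99.97 and 80.6 CPM in the mutant controls and 97.4, 105 and 116 CPM in the mutant IFNα libraries. Its wild-type controls spread widely, and the IFNα differences of 0.23 ± 0.141 and 0.22 ± 0.141 had overlapping groups. Ccne2, the cyclin E2 gene, had the widest intervals of the 37 genes.

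**Figure D2:**
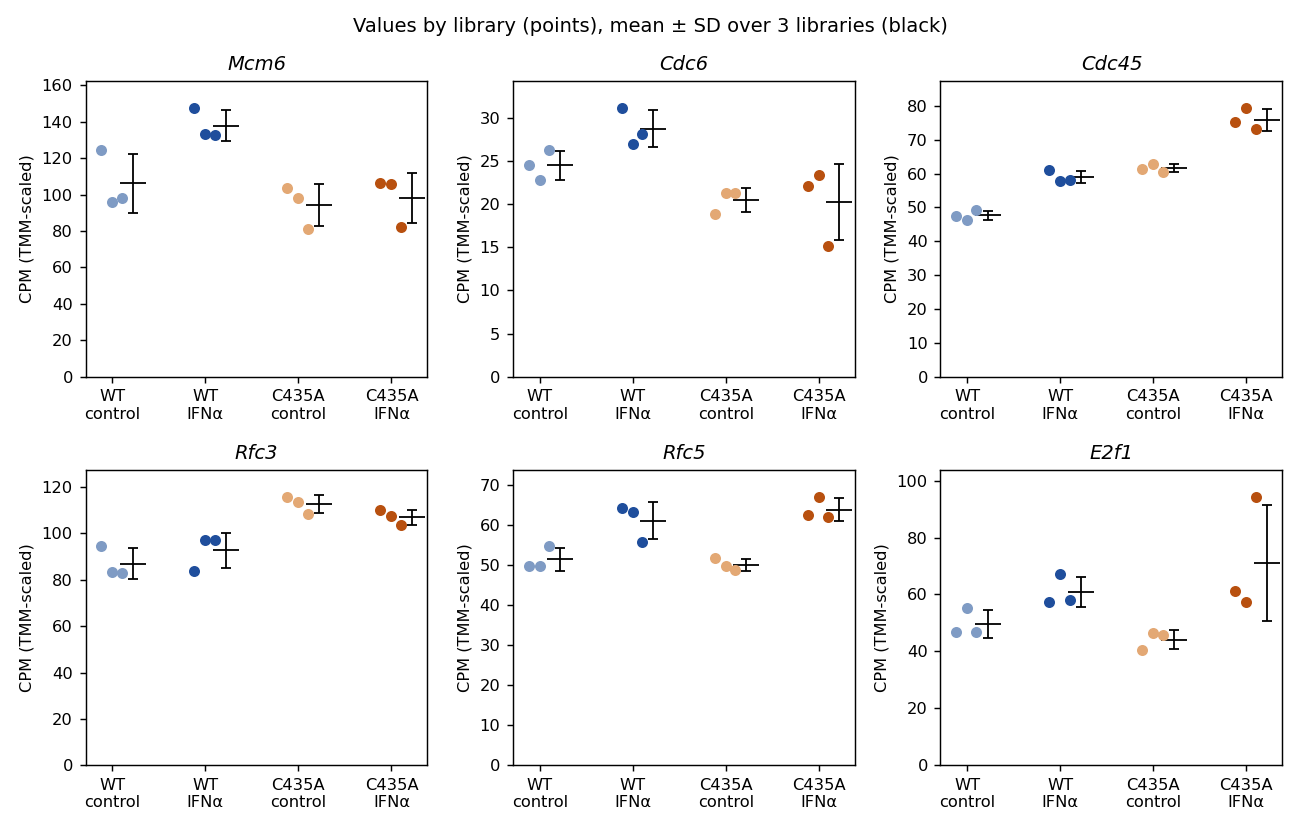
Points are the CPM of 6 genes in each library (vertical axes from 0), by group (horizontal axes), with the mean ± SD over 3 libraries in black. Rfc3 separates the lines, Rfc5 and E2f1 separate the treatments, and Cdc45 differs along both, from 46.4 CPM in a wild-type control to 79.4 CPM in a mutant IFNα library.

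The first comparison asked what IFNα changed in wild-type cells. The 37 genes were slightly higher as a set: 36 of the 37 had positive values, where 52.9% of all genes tested did, and their median log2 fold change was 0.22, where that of all genes was 0.02. The members share libraries and are not independent of each other. Counts of positive values, here and in the later comparisons, therefore describe the list and are not a test. None of the members passed singly. The edgeR quasi-likelihood test with Benjamini-Hochberg adjustment called 0 of the 37 (0.0227% of all genes), as did DESeq2 and limma, which tested 36 of them. Few genes of any kind were called with IFNα. Of the 17590 genes edgeR called 1 higher and 3 lower, and DESeq2 called 15 higher and 54 lower in the table as a whole. At an unadjusted p under 0.05 there were 9 members, Cdc45, Pole, Mcm6, Rfc5, Tyms, E2f2, Gins1, Uhrf1 and Dut, all higher, against 2.68% of all genes. The groups did not overlap for 10 members, all higher, against 5.48% of all genes. The 95% interval lay within 2-fold in either direction for 37 of 37 members, against 65.8% of all genes, and within 1.5-fold for 25 of them, against 43.2%. Mean counts of the members ran from 321 (Pola1) to 22865 (Pcna). The shares of all genes were not matched for count level, here or in the later comparisons, so they do not show that the members are unusually stable.

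All 7 roles had positive medians in wild-type cells, from 0.09 in flap processing, ligation and repair to 0.31 in helicase activation. Without wild-type IFNα 1 the median of the 37 genes was 0.15, and without each other library in turn it was at most 0.25. All wild-type IFNα libraries held lung transcripts and 2 of the 3 wild-type controls did not. With a term for these transcripts in the fit, chosen after the data were seen, the median was 0.28. Only the wild-type controls and the mutant IFNα libraries included both kinds of library. The term therefore rests on these groups, each with 1 library holding lung transcripts. The sum of the fibroblast and endothelial markers, in which Col1a1 weighs most, was also higher in every wild-type IFNα library than in any wild-type control. It was at least 62.5 against at most 39.7 CPM, and the part of these markers was not tested. Longer genes had higher log2 fold changes in this comparison (Spearman's rho of 0.13 over 17193 genes, which are not independent of each other). The 37 genes have a median transcript length of 3.01 kb against 2.63 kb for all genes, and with the length trend removed their median was 0.21.

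The second comparison asked what IFNα changed in mutant cells. The direction was mixed: 23 of the 37 genes had positive values, against 49.2% of all genes, and the median was 0.06. E2f1, Rfc5 and Cdc45 had the smallest p-values, and all 3 were higher with IFNα in every mutant library. By edgeR 0 of the 37 passed (0.00569% of all genes), while DESeq2 called these same 3 genes and limma called 0. Over all genes edgeR called 1 higher and 0 lower, and DESeq2 called 115 higher and 60 lower. An unadjusted p under 0.05 was reached by 7 members, all higher (5.7% of all genes were higher at that level): E2f1, Rfc5, Cdc45, Mcm2, E2f2, Mcm5 and Uhrf1. The groups did not overlap for 9 higher and 1 lower, against 7.97% and 9.74% of all genes. Intervals lay within 2-fold for 36 of 37 members, against 63.6% of all genes, and within 1.5-fold for 32, against 37.3%.

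The median of 0.06 rested on single libraries of the mutant IFNα group. It was 0.00 without mutant IFNα 2 and 0.15 without mutant IFNα 3, when 31 of the 37 genes were positive. Mutant IFNα 3, the library with lung transcripts, had the lowest value of its group for Orc1, Cdc6, Mcm6, Dut, Rrm2 and Tk1, among others, and the highest for E2f1, Ccne1, Mcm2 and Mcm5, among others. With the term for lung transcripts the median was 0.04.

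**Figure D3:**
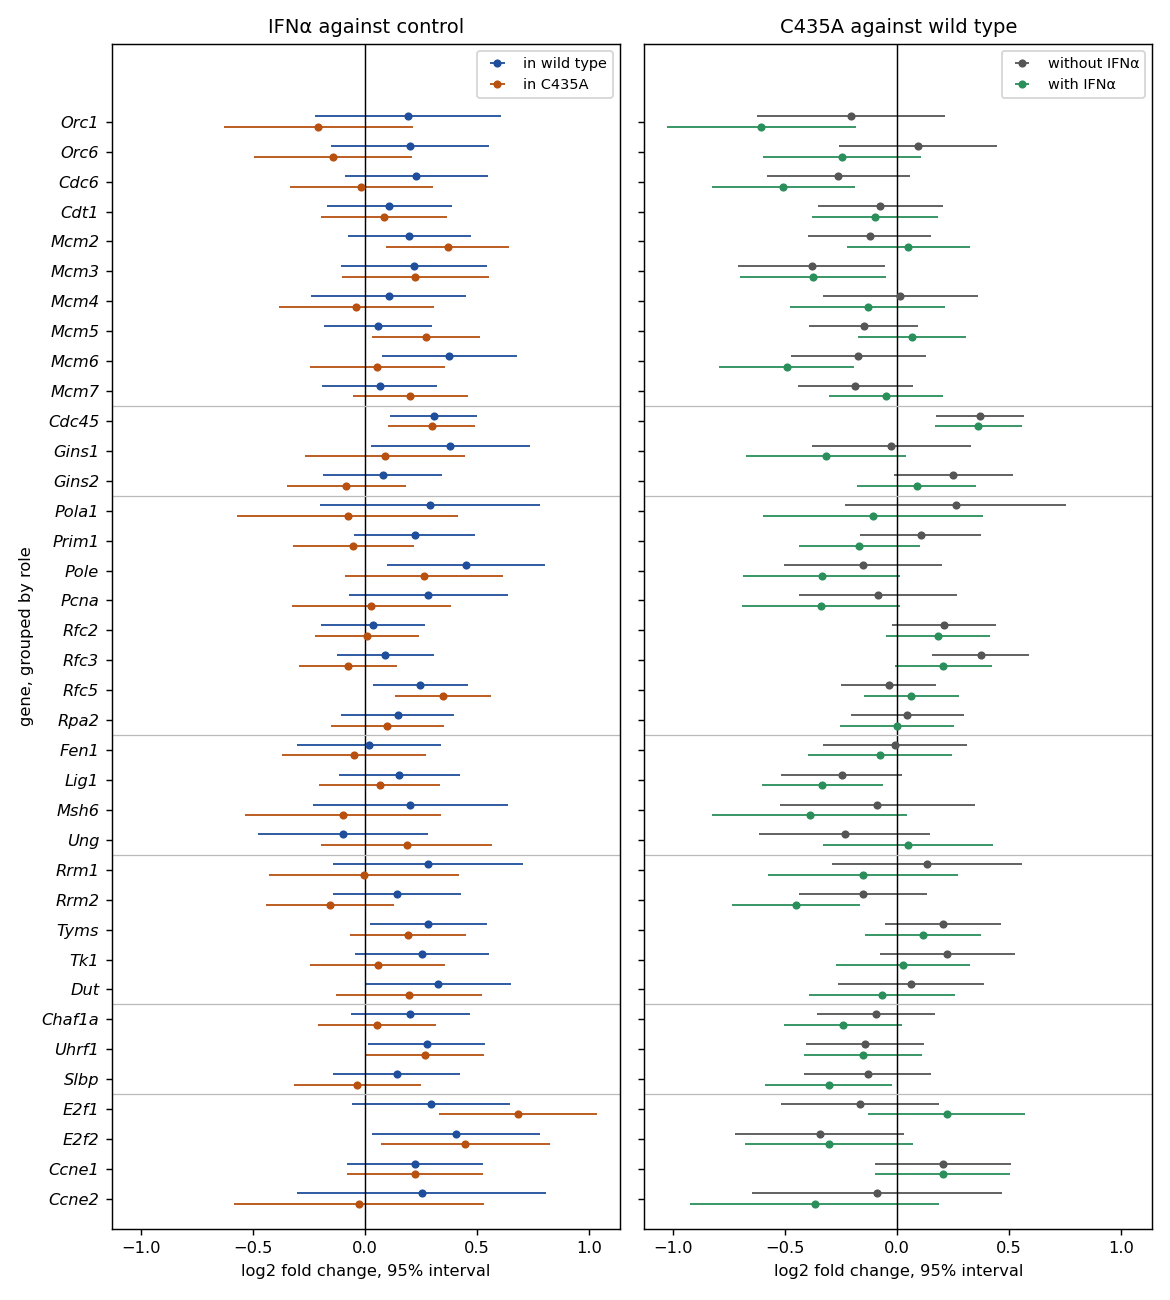
Points are log2 fold changes with 95% intervals from edgeR for the 37 genes (vertical axis, grouped by role), for IFNα against control in each line (left) and the mutant against the wild type at each treatment (right). Nearly all blue points on the left lie right of 0, and intervals for Cdc45 clear 0 in all 4 comparisons.

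The interaction asked whether the IFNα difference itself differed between the lines. Of the 37 genes 29 had negative values, a smaller IFNα difference in the mutant, against 52.3% of all genes, and the median was −0.15. By edgeR 0 of 37 passed (0.0% of all genes) and 5.17% of all genes but 0 members had an unadjusted p under 0.05. The count was 0 in DESeq2 and in limma too. The smallest p-values belonged to E2f1 at 0.39 ± 0.232, Mcm6 at −0.32 ± 0.198 and Rrm2 at −0.30 ± 0.188 (adjusted p = 0.916 for each, edgeR). The median was −0.20 without mutant IFNα 2 and −0.08 without mutant IFNα 3. A difference in the IFNα effect between the lines was therefore not detected for any of the 37 genes. Intervals lay within 2-fold for 35 of the 37, against 53.4% of all genes, and within 1.5-fold for 19, against 18.8%.

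The third comparison set mutant against wild-type cells without IFNα. Of the 37 genes 14 were positive and 23 negative, against 50.6% of all genes positive, with a median of −0.09. Cdc45 and Rfc3 were higher and Mcm3 was lower in the mutant at the smallest p-values, and were the 3 members at an unadjusted p under 0.05, where 6.07% of all genes were higher and 4.63% lower at that level. By edgeR 0 of the 37 passed (0.165% of all genes), Cdc45 and Rfc3 passed in DESeq2, and limma called 0. Over all genes DESeq2 called 138 higher and 94 lower, of 18379 given an adjusted p. The groups did not overlap for 5 higher and 5 lower members, against 12.2% and 8.01% of all genes. Intervals lay within 2-fold for 37 of 37, against 63.3% of all genes. The median depended on the scaling, at −0.17 with library totals and −0.16 by limma with a pseudocount of 0.1, and was −0.015 with the term for lung transcripts and −0.026 with the length trend removed. Longer genes had lower log2 fold changes in this comparison (Spearman's rho of −0.26 over 17193 genes). The median was 0.05 for the 15 members with transcripts up to 2500 bases and −0.13 for the 22 longer ones. The sum of the leukocyte markers, in which Lyz2 weighs most, was 112 to 124 CPM in the mutant controls. It was 64.3 to 101 CPM in the wild-type controls, and the part of these markers was not tested. When single libraries were left out the median of the 37 genes was −0.04 for wild-type control 1, −0.05 for mutant control 3 and for wild-type control 3, and −0.11 for wild-type IFNα 1.

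The fourth comparison set mutant against wild-type cells with IFNα. Of the 37 genes 24 had negative values, lower in the mutant, against 51.5% of all genes, with a median of −0.13. The licensing genes held 4 of the 7 lower members at an unadjusted p under 0.05: Mcm6, Cdc6, Orc1 and Mcm3, beside Rrm2, Lig1 and Slbp (6.15% of all genes were lower at that level). Cdc45 was the 1 higher member, against 7.56% of all genes. By edgeR 0 of the 37 passed (0.597% of all genes), whereas DESeq2 called Cdc45 higher and Cdc6, Mcm6 and Rrm2 lower, and limma called 0. Over all genes DESeq2 called 455 higher and 177 lower, of 15725 given an adjusted p. The groups did not overlap for 4 higher and 9 lower members, against 9.89% and 8.52% of all genes. Intervals lay within 2-fold for 36 of 37, against 62.7%. The median was −0.05 without wild-type IFNα 1, −0.09 without mutant IFNα 3 and −0.20 without mutant IFNα 2. It was −0.22 with library totals, −0.23 with the term for lung transcripts and −0.08 with the length trend removed. Longer genes had lower log2 fold changes here too (Spearman's rho of −0.20 over 17193 genes).

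Averaging each contrast over the other factor, which was chosen after the data were seen, gives 6 libraries on each side. For IFNα over both lines, 33 of the 37 genes were positive, against 50.4% of all genes, with a median of 0.13. By edgeR 0 passed (0.171% of all genes), and intervals lay within 2-fold for 37 of 37, against 72.5% of all genes. There were 11 members at an unadjusted p under 0.05, all higher, against 5.7% of all genes. Over all genes DESeq2 called 154 higher and 133 lower, of 13608 given an adjusted p. Of the members, Cdc45, E2f1 and Rfc5 passed in DESeq2, all higher, and 0 passed in limma. The edgeR values of these 3 were 0.30 ± 0.0640, 0.49 ± 0.116 and 0.30 ± 0.0702 (adjusted p = 0.096, 0.127 and 0.124). Leaving out mutant IFNα 3 gave 1 call, Dut. For E2f1 and Rfc5 the 6 IFNα libraries did not overlap the 6 controls, as for 0.267% of all genes.

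For the mutant over both treatments, edgeR called 2 of the 37 genes, both higher, where 2.8% of all genes were called and 1.89% were called higher. Cdc45 was higher by 0.37 ± 0.0640 (adjusted p = 0.0086) and Rfc3 by 0.29 ± 0.0718 (adjusted p = 0.0463). The call for Cdc45 held in each of the 12 fits that left out 1 library, and was lost with library totals as scaling (0.28, adjusted p = 0.0892) and in limma (0.25, adjusted p = 0.0746). The call for Rfc3 was lost in 10 of those 12 fits, with adjusted p-values up to 0.134, and held only without wild-type control 1 or without mutant IFNα 3. All 10 licensing genes had negative values, with a median of −0.10; Cdc6 at −0.38 ± 0.105, Mcm3 at −0.38 ± 0.108 and Mcm6 at −0.33 ± 0.0991 did not pass by edgeR (adjusted p = 0.0692, 0.0805 and 0.0918). At an unadjusted p under 0.05 there were 3 higher and 8 lower members, against 9.88% and 8.21% of all genes, and 11 of 37 were positive, against 49.9%, with a median of −0.08 (−0.15 with library totals). Longer genes were lower in the mutant over both treatments (Spearman's rho of −0.28 over 17193 genes). With this length trend removed the medians were −0.08 for the 37 genes and −0.14 for the licensing genes. The 6 mutant libraries lay apart from the 6 wild-type libraries for Rfc2 and Rfc3, higher (1.82% of all genes), and for Orc1, lower (0.978% of all genes). DESeq2 called 7 members, Cdc45 and Rfc3 higher and Cdc6, Lig1, Mcm3, Mcm6 and Rrm2 lower, and limma called 2, both lower. Over all genes DESeq2 called 703 higher and 521 lower, of 16787 given an adjusted p. For limma these were 197 higher and 200 lower, of 10094.

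Cdc45 lies on chromosome 16, whose genes were higher by median in the mutant. Over both treatments the median log2 fold change of the 540 genes tested on chromosome 16 was 0.20, the highest of 20 chromosomes, with 55 genes called higher and 1 lower by edgeR. On the other 19 chromosomes the median lay between −0.08 and 0.06. The median of chromosome 16 was 0.22 without IFNα and 0.17 with it. Within 500 kb of Cdc45, and with Cdc45 itself counted, 16 genes were tested. Over both treatments 13 of them had positive values, against 49.9% of all genes. Called higher were 6, against 1.89% of all genes: Cdc45, Gnb1l, Tango2, Mrpl40, Txnrd2 and the pseudogene Rps2-ps7. These neighbours were named after their values were seen.

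Mcm4, a subunit of the MCM ring whose gene is also on chromosome 16, was at −0.06 ± 0.114 (adjusted p = 0.842, edgeR). Of the other replication genes listed for comparison, Chaf1b, the middle subunit of the chromatin assembly factor, is also on chromosome 16. It measured 68.5, 72.3 and 72.8 CPM in the wild-type controls, 73.6, 80.6 and 82.2 CPM in the wild-type IFNα libraries, 96.5, 92.5 and 98.0 CPM in the mutant controls and 91.9, 108 and 114 CPM in the mutant IFNα libraries. All 6 mutant libraries were above all 6 wild-type libraries, and Chaf1b was called over both treatments at 0.42 ± 0.0739 (adjusted p = 0.00885, edgeR). It was the 1 gene called of those 60 other replication genes, against 2.8% of all genes. The call held in 20 of 22 alternative fits by edgeR, DESeq2 or limma, with adjusted p-values up to 0.0659. Rfc4, a further clamp loader gene on chromosome 16, had 0.23 ± 0.120 and did not pass (adjusted p = 0.331, edgeR). Donson, a replication fork gene there, was at 0.03 ± 0.170 (adjusted p = 0.960, edgeR), with 0.28 ± 0.241 without IFNα and −0.23 ± 0.240 with it. Rfc3 is on chromosome 5, where the median was −0.01.

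**Figure D4:**
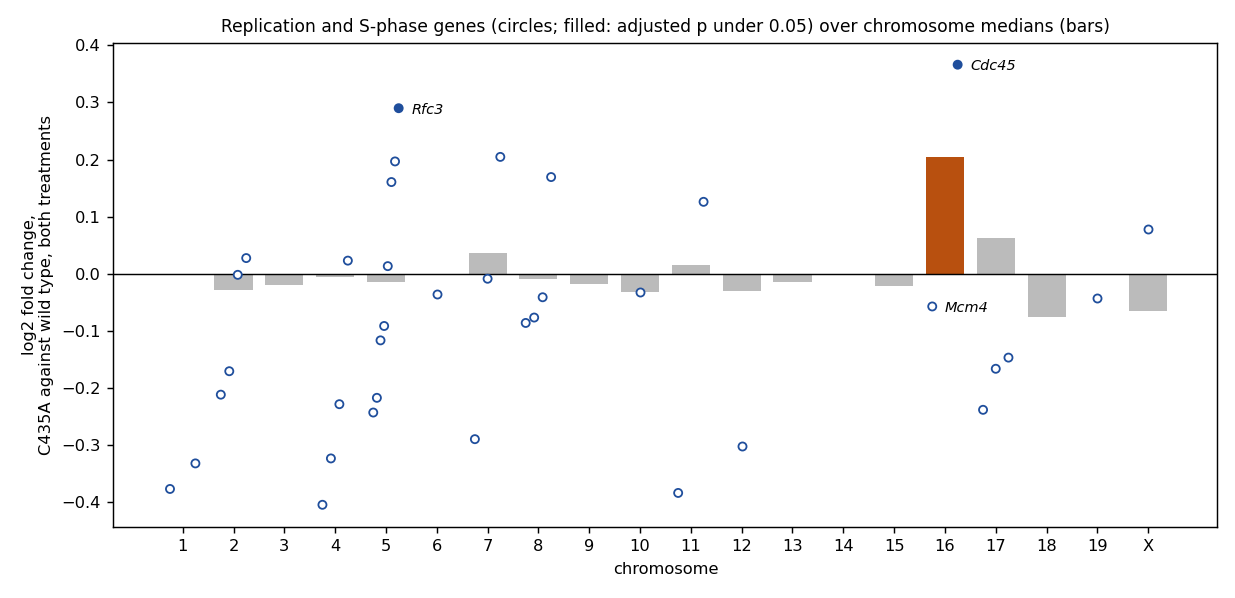
Bars are the median log2 fold change of all genes tested on each chromosome for the mutant against the wild type over both treatments, and circles are the 37 genes on their chromosomes, filled where edgeR called them. Chromosome 16 stands out at 0.20, with Cdc45 above its bar and Mcm4 below 0.

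Further replication genes, 60 in number and not among the 37, gave similar medians. The IFNα median was 0.22 in the wild type, with 55 of 60 positive, and 0.03 in the mutant, with 31 of 60 positive. For the mutant it was 0.00 without IFNα and −0.19 with it, and for the interaction −0.17. By edgeR 0 of 60 passed in these 5 comparisons, with 10, 4, 4, 12 and 5 of them under 0.05 before adjustment. For all genes these shares were 5.44%, 10.3%, 10.7%, 13.7% and 5.17%, so that 4 of 60 was below the background both for IFNα in the mutant and between the untreated lines. Of the 10 with IFNα in the wild type 9 were higher, and of the 12 between the treated lines 9 were lower. In DESeq2 the counts were 1, 1, 1, 2 and 0, and in limma, which tested 50 of the 60, 0 throughout. Pold2, a subunit of polymerase delta, measured 76.3, 93.6 and 85.1 CPM in the wild-type controls, 97.8, 96.1 and 105 CPM in the wild-type IFNα libraries, 79.7, 82.7 and 85.8 CPM in the mutant controls and 126, 111 and 136 CPM in the mutant IFNα libraries. The mutant groups did not overlap, at 0.59 ± 0.110 (adjusted p = 0.162, edgeR; called by DESeq2). Pold4, the small subunit of the same enzyme, measured 21.6, 23.5 and 25.6 CPM in the wild-type controls and 16.4, 17.7 and 18.6 CPM in the wild-type IFNα libraries, also without overlap, and 21.001, 21.2 and 20.4 CPM in the mutant controls and 21.2, 19.6 and 20.3 CPM in the mutant IFNα libraries. In the wild type it was at −0.43 ± 0.111 (adjusted p = 0.441, edgeR). Samhd1, an interferon-linked enzyme that degrades deoxynucleotides, had 0.09 ± 0.106 in wild-type cells and −0.0037 ± 0.106 in mutant cells with IFNα, with overlapping groups in both.

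Other G1/S control genes, 26 in all, had IFNα medians of 0.08 in wild-type cells and 0.04 in mutant cells, with 16 and 14 positive. For the mutant the medians were −0.07 without IFNα and −0.13 with it, and 0 of 26 passed in any of the 5 comparisons by edgeR, DESeq2 or limma (18 tested), with 4, 3, 1, 1 and 2 of them under 0.05 before adjustment. Beside the shares of all genes given above, 1 of 26 between the lines was below the background at each treatment, and both of these were lower in the mutant; of the 4 and 3 with IFNα, 3 and 3 were higher. Cdkn1a, the p21 inhibitor gene, measured 748, 918 and 837 CPM in the wild-type controls, 744, 774 and 778 CPM in the wild-type IFNα libraries, 684, 821 and 776 CPM in the mutant controls and 821, 793 and 951 CPM in the mutant IFNα libraries. Its IFNα differences were −0.12 ± 0.117 and 0.17 ± 0.117, with overlap in both lines. Ccnd1, the cyclin D1 gene, had −0.18 ± 0.126 and −0.19 ± 0.126, also with overlap. The genes with the smallest p-values in the list were Tfdp1, an E2F partner, at 0.30 ± 0.113 with IFNα in the wild type and Ccnd3, a D-type cyclin gene, at 0.36 ± 0.153 with IFNα in the mutant. Between the lines they were Cdk2, the kinase of cyclin E, at −0.31 ± 0.123 without IFNα and E2f6, a repressing E2F, at −0.58 ± 0.194 with it. For the interaction it was Fbxo5, an inhibitor of the anaphase-promoting complex, at −0.58 ± 0.260.

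Mitosis genes, 40 in number, were higher with IFNα in both lines by median, at 0.28 in the wild type (38 of 40 positive) and 0.18 in the mutant (35 of 40 positive). For the mutant they were at −0.12 without IFNα and −0.21 with it, with 9 and 5 of 40 positive. By edgeR 0 of 40 passed in the 5 comparisons, with 12, 9, 3, 11 and 1 of them under 0.05 before adjustment. The 12 and 9 with IFNα were all higher and above the shares of all genes (5.44% and 10.3%), 10 of the 11 between the treated lines were lower (13.7% for all genes in either direction), and 3 and 1 of 40 were below the background of 10.7% and 5.17%. In DESeq2 the counts were 0, 1, 0, 2 and 0, and in limma, which tested 38 of the 40, 0 throughout. Cdk1, the mitotic kinase gene, measured 305, 250.3 and 246 CPM in the wild-type controls and 314, 368 and 342 CPM in the wild-type IFNα libraries, without overlap, at 0.35 ± 0.156 (adjusted p = 0.902, edgeR). In the mutant it measured 284, 294 and 288 CPM without and 329, 362 and 223 CPM with IFNα, at 0.08 ± 0.156. Mki67, the Ki-67 gene, had 0.09 ± 0.193 and 0.45 ± 0.195 in the 2 lines, and Ccnb1, the cyclin B1 gene, 0.29 ± 0.150 and −0.04 ± 0.150, all with overlap. Over both treatments edgeR called Cdca3, a regulator of mitotic entry, higher in the mutant (0.37 ± 0.0782, adjusted p = 0.0252) and Tpx2, a spindle assembly factor gene, lower (−0.36 ± 0.0876, adjusted p = 0.043); the calls were lost in 8 and 9, respectively, of the 12 fits that left out 1 library. These genes were named because they were called, after their values were seen. Cdca3 measured 89.1, 93.97 and 91.2 CPM in the wild-type controls, 111, 103 and 110.1 CPM in the wild-type IFNα libraries, 109, 105 and 109 CPM in the mutant controls and 136, 142 and 178 CPM in the mutant IFNα libraries, and its wild-type IFNα and mutant control libraries overlapped. Tpx2 measured 26.9, 28.1 and 29.6 CPM in the wild-type controls, 41.01, 32.6 and 34.2 CPM in the wild-type IFNα libraries, 25.4, 22.9 and 19.5 CPM in the mutant controls and 27.5, 27.9 and 26.03 CPM in the mutant IFNα libraries, and every mutant library was below every wild-type library of the same treatment.

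**Figure D5:**
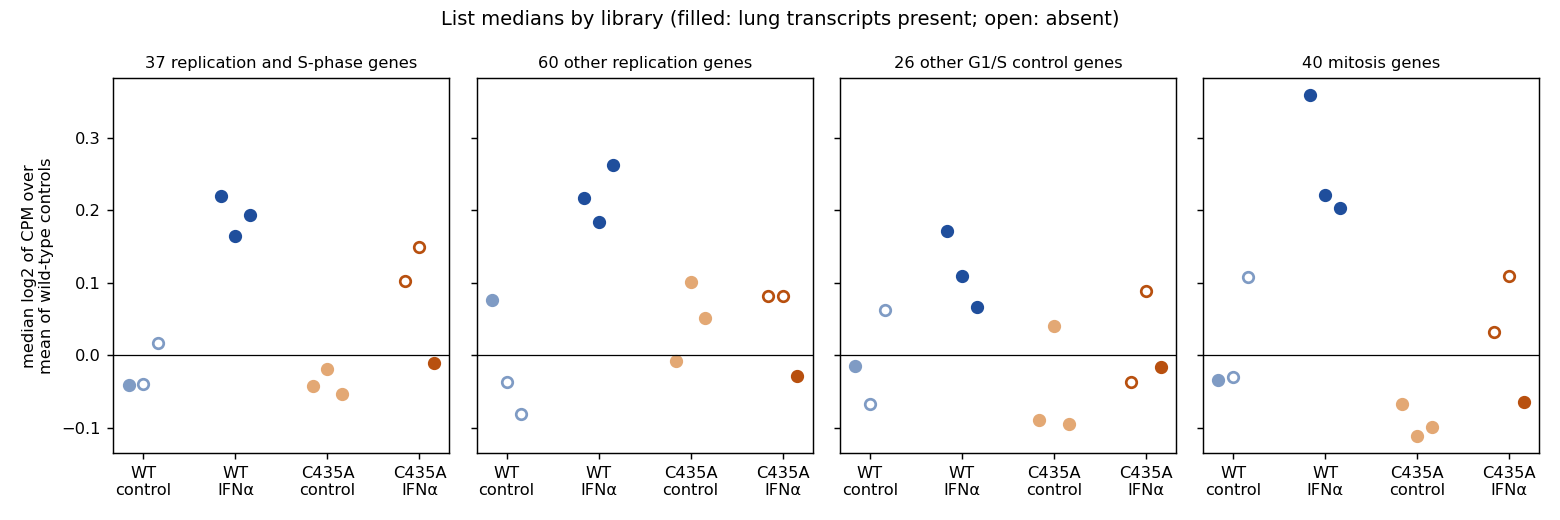
Points are the median log2 ratio to the wild-type control mean over each list in each library (vertical axis), by group (horizontal axis), filled where lung transcripts were present. In the list of 37 genes the wild-type IFNα libraries sit at 0.16 to 0.22, above all others.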

How the data were processed

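RNA from 12 libraries of B16F10 cells, 3 per group, was analysed from 1 deposited table holding gene counts and FPKM. Counts are whole numbers per gene as the authors deposited them, and FPKM values, scaled by depth and transcript length, are theirs too, per the file headers. The build GRCm38 and the tools HISAT2 2.0.4, StringTie 1.3.4d, cutadapt 1.9, edgeR, UMI-tools and DESeq2 are listed in the submitters' processing notes. Which tool made which column, the annotation and any use of strand: not given in the sources used here. Multiples of 4 made up 33.6% of counts between 1 and 30, against 23.3% if all such numbers were equally frequent, so small counts may not be plain read numbers.

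Counts were tested with edgeR 4.0.16 in R 4.3.3 (TMM scaling, filterByExpr, quasi-likelihood test, 4 group means over 12 libraries), with Benjamini-Hochberg adjustment over all 17590 genes and a threshold of 0.05. DESeq2 1.42.0 and limma 3.58.1, on log2(FPKM + 1) for genes with FPKM of at least 1 in 3 libraries, were alternatives, as were other scalings, no filter, a replicate block and leaving out each library. The common biological coefficient of variation was 28.9%. Non-overlap of 3 against 3 libraries has an exact permutation p of 0.1 at best. The scripts were tested on simulated data. The 37 genes, the other lists and the tests were chosen with earlier results of these data known, and the averaged contrasts, the lung term and the length trend after the data were seen. Values in every library are given for members past the threshold, the 3 members with the smallest p-values per comparison and, per role, the highest and the most variable gene by FPKM. In the other replication and G1/S lists, called genes or the gene with the smallest p per comparison are named, with Samhd1, Cdkn1a, Ccnd1, Mki67, Cdk1 and Ccnb1 added whatever their result, and values in every library are printed for only some of these.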

Additional observations from a re-analysis of the deposited data

How the results depend on the processing

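The 37 genes had 0 calls by edgeR in the 5 comparisons under every edgeR alternative run, and limma also gave 0. DESeq2 called 3 with IFNα in the mutant, 2 between the lines without IFNα, 4 with it, 3 for IFNα over both lines and 7 for the mutant over both treatments. For the latter, 2 genes were called as reported, 0 with library totals, 1 without the filter, 0 by limma without its filter and 1 to 2 when 1 library was left out. For IFNα over both lines, leaving out 1 library gave 0 to 1 calls. Whether the replicate numbers pair the samples is not stated. Deviations from the group means correlated at −0.41 to 0.34 over genes between libraries of the same number in 2 compared groups. Between different numbers the range was −0.42 to 0.66, highest for wild-type control 3 with wild-type IFNα 1. With a replicate block 1 gene was called for the mutant over both treatments, and the block changed no other count of the 37 genes.

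Leaving out 1 library, the median of the 37 genes ranged from 0.15 to 0.25 for IFNα in the wild type, 0.00022 to 0.15 in the mutant, −0.11 to −0.04 between the lines without IFNα, −0.20 to −0.050 with it and −0.20 to −0.078 for the interaction. With the lung term it was 0.28 for IFNα in the wild type, and −0.015 and −0.23 between the lines without and with IFNα. With library totals the last 2 were −0.17 and −0.22. By limma it was −0.16 without IFNα (pseudocount 0.1), and −0.20, −0.22 and −0.19 with it (pseudocounts 1 and 0.1, and no filter). With the length trend removed these were −0.026 and −0.083. For the mutant over both treatments it was −0.08 as reported, −0.15 with library totals and −0.14, −0.16 and −0.14 by limma. The cause of these shifts was not tested.

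Among single genes, the near-zero IFNα value of Samhd1 in the mutant changed sign with library totals (0.030), no filter (0.010), DESeq2 (0.0030), limma (0.018, 0.020 and 0.018) and the lung term (0.044), and in 5 fits that left out 1 library (−0.037 to 0.050 over all 12). Mki67 in the wild type ranged from −0.058 without wild-type control 1 to 0.24. Cdk1 in the mutant ranged from −0.064 without mutant IFNα 2 to 0.26, and was −0.030 with the lung term. Ccnb1 in the mutant was 0.03 without mutant control 1 and ranged from −0.12 to 0.10, the latter without mutant IFNα 3. For the interaction, the 95% interval stayed within 1.5-fold for 19 of the 37 genes, and reached beyond it for the others.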
